A study of Mus musculus with 11 samples.

Results

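The genes described here are the integrins, cadherins and related adhesion genes of mouse liver. They were taken by symbol from a table of 24063 genes: every integrin alpha and beta subunit, every cadherin with a numbered symbol, and Cd44, Icam1, Icam2, Vcam1, Fn1 and Vim. This gave 55 genes. RNA sequencing was done on livers of 6 A2M-treated and 5 PBS-treated male athymic nude mice of the strain labelled Cd1 nu/nu, which lack a thymus but keep B cells, natural killer cells and myeloid cells. Per the study's methods the mice were young adults that bore subcutaneous human tumour xenografts and received repeated intraperitoneal injections, of A2M in one group and of PBS in the other. A2M is here the activated form of human alpha2-macroglobulin, a plasma protease inhibitor that the liver clears through the receptor LRP1. The labels do not give the tumour line that a mouse carried, nor a batch or a time of day. Nothing beyond a sample number says that the livers came from separate animals, so p-values measure the spread between these samples.

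Integrins are pairs of an alpha and a beta chain that bind matrix proteins or other cells on the outside and actin through talin on the inside. Cadherins join like to like between neighbouring cells and hold the adherens junction through catenins. In liver, hepatocytes carry both E-cadherin (Cdh1) and N-cadherin (Cdh2), sinusoidal endothelium carries VE-cadherin (Cdh5), and the beta2 and beta7 integrins belong to leukocytes. The study examined CD29, the product of Itgb1, together with CD44, E-cadherin and vimentin in tumour cells, for adhesion and the epithelial to mesenchymal transition. It measured CD29, CD44 and E-cadherin as proteins, and CD44, E-cadherin and vimentin also as RNA by qRT-PCR. For those RNAs it reported no significant effect of A2M in the tumour cells. The comparison below asks how RNA of the same genes, and of their families, stood in the host liver.

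No adhesion gene passed the test between A2M and PBS livers. Of the 55 genes, 32 had enough reads to be tested. In edgeR's quasi-likelihood test 0 of the 32 reached an adjusted p under 0.01, where 0.215% of all 12581 genes tested did so, and the smallest adjusted p was 0.257, that of Itga7. DESeq2 also called 0 of the 32, of which Cdh13, Cdh15, Itga6 and Itgb4 were given no adjusted p. Its smallest adjusted p was 0.132 for Vcam1, and it called 2.38% of the 12007 genes that had an adjusted p. At an unadjusted p under 0.05 there were 4 genes of 32, namely Itga7, Itga5, Vcam1 and Itga6, beside 14.7% of all genes. In 0 of 32 genes did the A2M livers lie wholly on one side of the PBS livers, beside 2.59% of all genes. The fitted difference was positive in 14 genes and negative in 18, with a median log2 fold change of -0.06, and over all genes 48.9% were positive with a median of -0.01. A single adhesion gene could still have changed by less than these livers can show, so the interval of the difference is given for each gene named.

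**Figure D1:**
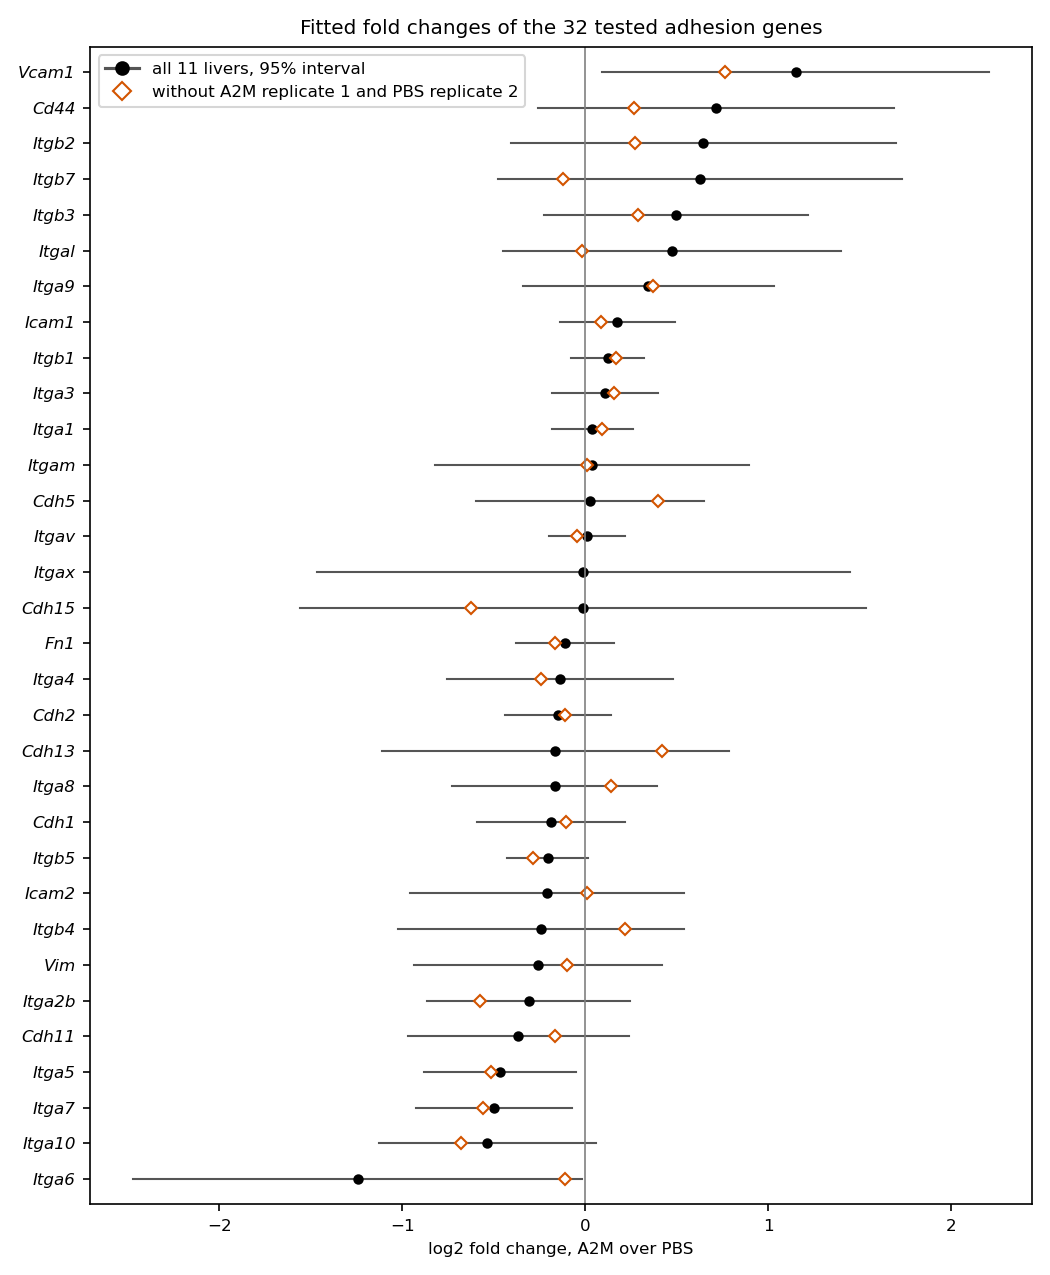
Fitted log2 fold change, A2M over PBS, of each of the 32 tested adhesion genes (black points, all 11 livers) with its 95% interval (grey lines), and the same fit without A2M replicate 1 and PBS replicate 2 (open diamonds). Intervals are narrow for Itgb1, Itgav and Itgb5 and wide for Itga6, Itgax and Cdh15, and the estimate of Itga6 lies at -1.24 with all livers and at -0.11 without those 2 livers, in which fit Itgax was under the filter.

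The livers held between 23545121 and 37357134 counted reads in the A2M group and between 31513210 and 46381692 in the PBS group. The defining markers of hepatocytes were high in every library, with a sum over 10 genes of 97833 to 116313 RPM (reads scaled to an equal library total) in A2M livers and 78207 to 124706 RPM in PBS livers. Some libraries differed from the rest in other cell types. In A2M replicate 1 the 11 macrophage markers found in the table summed to 563 RPM and the 9 neutrophil and monocyte markers to 47.2 RPM, against 258 and 9.14 RPM in A2M replicate 6, and at most 245 and 12.5 RPM in PBS livers. The 8 adrenal markers and the 7 fat cell markers reached at most 24.6 and 7.02 RPM in A2M livers, against 824 and 770 RPM in PBS replicate 2, and the other PBS livers reached at most 16.04 RPM of fat cell markers. In A2M replicate 6 the lymphocyte markers summed to 10.1 RPM and the pan-leukocyte markers to 149.8 RPM, beside 13.2 and 173 RPM in A2M replicate 1, and at most 7.77 and 111 RPM in PBS livers. The pan-leukocyte sum is weighted to Lcp1, which alone gave 106 RPM in A2M replicate 6 and 86.75 RPM in A2M replicate 1. In PBS replicate 3, the PBS liver with the highest sum, Lcp1 gave 94.8 RPM. Ptprc, of the same list, was lowest of all livers there, at 1.52 RPM. Kidney markers stayed at or under 0.431 RPM, with Slc34a1, Slc12a1, Aqp2 and Kap at 0 reads in all 11 livers. In whole liver, fewer cells of a type and less RNA per cell cannot be told apart.

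Of the integrin beta chains, beta1 and beta5 made up most of the RNA. Levels are given as the deposited RPKM (RPM divided by the exon length), which allows genes of different length to be set side by side. Itgb1, the partner of most alpha chains, had from 30.9 to 39.8 RPKM with a median of 33.4 in A2M livers, against 29.6, 36.8, 32.7, 25.9 and 33.6 RPKM in PBS livers. The ranges overlapped, with A2M replicate 3 above every PBS liver and PBS replicates 1 and 4 below every A2M liver. The level averaged 34.1 ± 3.21 RPKM in A2M livers (SD, n = 6) and 31.7 ± 4.15 RPKM in PBS livers (SD, n = 5), a log2 fold change of 0.12 ± 0.09 (SE) with a 95% interval of -0.08 to 0.32 and an adjusted p of 0.587 in edgeR. Expressed as a fold, that interval runs from 0.949 to 1.25.

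Itgb5, which pairs with the alphav chain to bind vitronectin, had from 13.6 to 18.9 RPKM with a median of 16.004 in A2M livers. The PBS livers had 22.8, 18.6, 19.0, 15.97 and 17.8 RPKM. Of the PBS livers only replicate 1 lay above the highest A2M liver by a wide margin, and the log2 fold change was -0.21 ± 0.10 (SE, 95% interval -0.43 to 0.01, adjusted p = 0.384 in edgeR). Itgb3, the beta chain of the platelet fibrinogen receptor and of a vitronectin receptor, was far lower, at 0.302 to 1.02 RPKM with a median of 0.360 in A2M livers, against 0.265, 0.533, 0.340, 0.235 and 0.331 RPKM in PBS livers. The highest value was that of A2M replicate 1. Its log2 fold change of 0.50 ± 0.33 (SE, 95% interval -0.22 to 1.22, adjusted p = 0.542 in edgeR) was 0.11 without that liver.

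Summed over the 12 alpha chains that can pair with beta1, the level was 12.7 to 15.2 RPKM in A2M livers and 14.3 to 21.4 RPKM in PBS livers, below that of Itgb1 alone in each of the 11 livers. Itgb1 stood at 2.06 to 2.75 times this sum in A2M livers and at 1.38 to 2.29 times in PBS livers. Of the sum, 27.7 to 45.0% in A2M livers and 28.9 to 46.1% in PBS livers was Itga5. Several of these alpha chains also pair with other beta chains, so the ratio compares RNA levels only. For the leukocyte chain Itgb2, set against its 4 alpha partners Itgal, Itgam, Itgax and Itgad, the ratio was 0.807 to 1.40 in A2M livers and 0.597 to 1.21 in PBS livers.

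Among the alpha chains that recognise the RGD motif of fibronectin and vitronectin, Itga5 was the highest. It encodes the alpha chain of the main fibronectin receptor. A2M livers had from 3.57 to 6.74 RPKM with a median of 4.26, and PBS livers had 9.87, 5.27, 5.83, 5.71 and 5.43 RPKM. The A2M livers other than replicate 4 lay below every PBS liver, and PBS replicate 1 lay far above all others. In the fit the log2 fold change was -0.47 ± 0.19 (SE, 95% interval -0.88 to -0.05, adjusted p = 0.275 in edgeR), and -0.28 without PBS replicate 1. The bile duct marker Spp1 was at 24.1 to 40.8 RPM in A2M livers, against 248 RPM in PBS replicate 1 and 18.3 to 69.5 RPM in the other PBS livers. The 7 other bile duct markers, a sum added after the values were seen, came to 5.99 to 9.01 RPM in A2M livers, against 10.3 RPM in PBS replicate 1 and 7.36 to 11.0 RPM in the other PBS livers. This sum is weighted to Sox9, at 1.79 to 5.93 RPM in A2M livers and 7.95 RPM in PBS replicate 1. In that PBS liver Krt19 and Tspan8, at 0.578 and 0.462 RPM, lay below every A2M liver, and the rest lay within the A2M range. The part of Spp1-expressing cells in the level of Itga5 was not tested. Itgav, the alphav chain of the vitronectin receptors, was among the most even of the alpha chains, at 2.25 ± 0.255 RPKM in A2M livers (SD, n = 6) and 2.25 ± 0.0562 RPKM in PBS livers (SD, n = 5).

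The laminin receptors include the lowest adjusted p of the family. Itga7, a laminin receptor best known from muscle, had from 1.33 to 2.29 RPKM with a median of 1.79 in A2M livers, against 4.14, 2.87, 2.19, 2.14 and 1.81 RPKM in PBS livers. The 2 highest livers were PBS replicates 1 and 2, and the others overlapped. Itga7 had a log2 fold change of -0.50 ± 0.20 (SE, 95% interval -0.92 to -0.07, adjusted p = 0.257 in edgeR), and -0.30 without PBS replicate 1. Itga7 shares 9 bases of exon, 0.217% of its exon length, with Mettl7b on the opposite strand, an abundant liver gene with 112965 reads in A2M livers and 101442 in PBS livers.

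Itga6, the laminin receptor of epithelial basement membranes, turned on a single liver. A2M livers had from 0.111 to 0.237 RPKM with a median of 0.158. PBS livers had 0.264, 1.37, 0.121, 0.136 and 0.157 RPKM, so that PBS replicate 2 stood 8.51-fold above the median of the other PBS livers in RPM + 0.1. The log2 fold change of -1.24 ± 0.57 (SE, 95% interval -2.47 to -0.02, adjusted p = 0.334 in edgeR) became -0.06 without that liver. DESeq2 gave Itga6 no p-value. PBS replicate 2 is the library with the adrenal and fat cell markers named above, and their part in the level of Itga6 was not tested. The third laminin receptor chain, Itga3, lay between 0.973 and 1.62 RPKM in all livers.

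Collagen receptors were low. Itga1, a collagen receptor of mesenchymal and endothelial cells, had 1.86 ± 0.192 RPKM in A2M livers (SD, n = 6) and 1.84 ± 0.250 RPKM in PBS livers (SD, n = 5). Itga10, known from cartilage, had from 0.159 to 0.261 RPKM with a median of 0.230 in A2M livers, against 0.395, 0.270, 0.302, 0.457 and 0.165 RPKM in PBS livers. Every A2M liver lay below every PBS liver other than replicate 5, with a log2 fold change of -0.53 ± 0.27 (SE, 95% interval -1.13 to 0.06, adjusted p = 0.399 in edgeR). Of its exon length 34.5% is shared on the same strand with the transcript Gm42957, so reads of Itga10 cannot be assigned with certainty. The collagen receptor chains Itga2 and Itga11 fell under the filter, with 38 and 41 reads in all. Itga2 had 8 reads in A2M livers and 30 in PBS livers, or from 0.00635 to 0.0201 RPKM with a median of 0.00886 in A2M livers, against 0.0206, 0.0731, 0.0301, 0.0256 and 0.0395 RPKM in PBS livers. The groups touched without overlapping in RPKM and overlapped in counts scaled by TMM. In a fit without the filter, Itga2 had a log2 fold change of -1.67 ± 0.53 (SE, adjusted p = 0.181 in edgeR). Also under the filter were Itgae and Itgad, alpha chains of leukocytes, with 96 and 12 reads, and Itgb6 and Itgb8, partners of the alphav chain, with 9 and 10 reads.

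**Figure D2:**
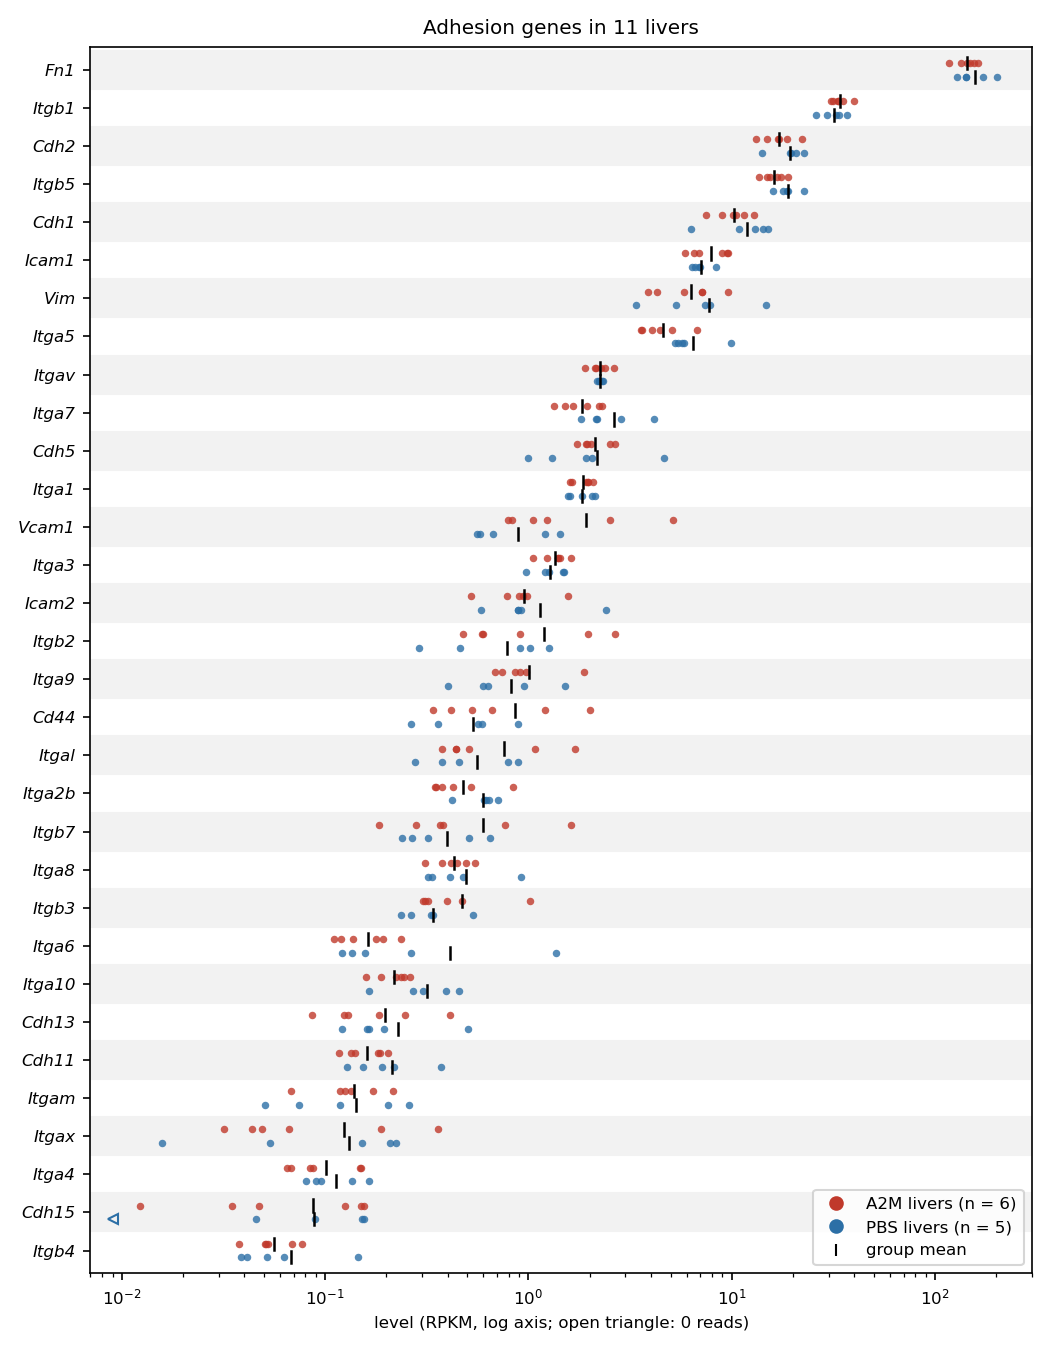
Level in RPKM (log axis) of each of the 32 tested adhesion genes in each liver, with A2M livers in red above PBS livers in blue, group means as black ticks and an open triangle where a liver had 0 reads. Levels span from Fn1 at a mean of 149.8 RPKM over all livers to Itgb4 at 0.0616 RPKM, and A2M and PBS points overlap in every gene.

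The leukocyte integrins varied widely from liver to liver, and these genes were picked for description after their values were seen. Itgb2, the common chain of the beta2 integrins, had 2.67 RPKM in A2M replicate 1, 1.96 RPKM in A2M replicate 6 and 0.475 to 0.907 RPKM in the other A2M livers. PBS livers had 1.02, 0.906, 0.288, 0.460 and 1.26 RPKM. The fitted log2 fold change was 0.65 with all livers and 0.24 without A2M replicate 1. Itgal, the alpha chain of LFA-1, had 0.376 to 1.69 RPKM in A2M livers and 0.276 to 0.890 RPKM in PBS livers, again with A2M replicates 1 and 6 at the top. Itgb7, the beta chain of gut-homing lymphocytes, had 0.184 to 1.62 RPKM in A2M livers and 0.240 to 0.648 RPKM in PBS livers, and its log2 fold change of 0.63 was 0.03 without A2M replicate 1. Itgax, a marker of dendritic cells, had 0.0317 to 0.359 RPKM in A2M livers and 0.0158 to 0.223 RPKM in PBS livers. Itgam, known from myeloid cells, shares 70.0% of its exon length on the same strand with the transcript Gm49368, and its 0.0677 to 0.215 RPKM in A2M livers and 0.0507 to 0.259 RPKM in PBS livers are uncertain for that reason.

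Cd44, the hyaluronan receptor, followed the same livers. It had 0.338 to 2.01 RPKM with a median of 0.592 in A2M livers, where replicates 1 and 6 had 2.01 and 1.21 RPKM. PBS livers had 0.588, 0.568, 0.264, 0.359 and 0.893 RPKM. The A2M livers outside these 2 lay within the PBS range. The level averaged 0.859 ± 0.641 RPKM in A2M livers (SD, n = 6) and 0.534 ± 0.243 RPKM in PBS livers (SD, n = 5). Cd44 had a log2 fold change of 0.72 ± 0.45 (SE, 95% interval -0.26 to 1.69, adjusted p = 0.507 in edgeR), and 0.27 without A2M replicate 1. The interval allows anything from 0.838-fold to 3.22-fold.

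Across the 11 livers Itgb2 and Cd44 moved with Ptprc, which encodes the leukocyte antigen CD45. On log2(RPM + 0.1), Itgb2 and Ptprc had a Pearson r of 0.95 and a Spearman rho of 0.91, with permutation p adjusted over 6 relations of 9.0e-05 and 0.00084. For Cd44 and Ptprc r was 0.94 and rho 0.92, with adjusted permutation p of 9.0e-05 and 0.00084. Without A2M replicates 1 and 6, the livers farthest from the median of Ptprc, r was 0.86 for Itgb2 and 0.83 for Cd44, and with each group centred at its own mean r was 0.95 and 0.96. Within the A2M livers alone r was 0.96 for Itgb2 and 0.99 for Cd44, and within the PBS livers 0.95 and 0.87.

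**Figure D3:**
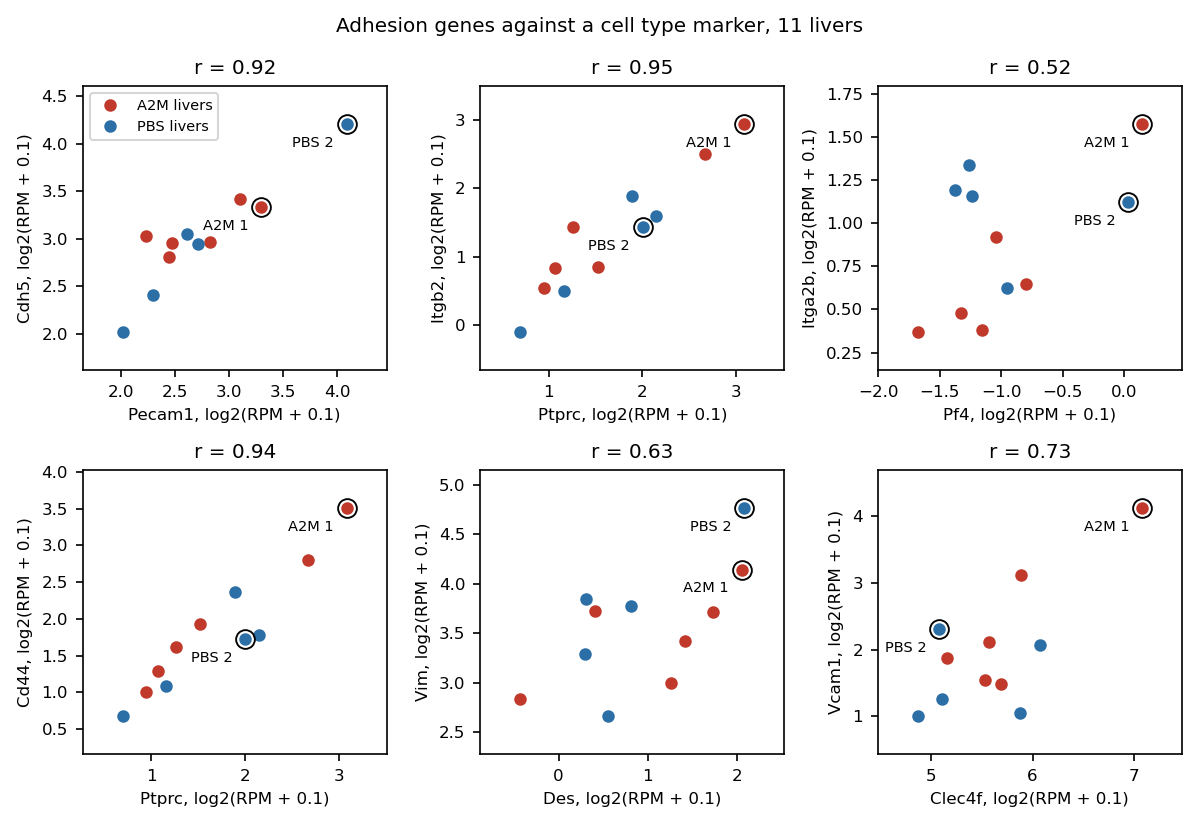
Level of an adhesion gene (vertical axis) against a cell type marker (horizontal axis), both in log2(RPM + 0.1), in 6 A2M livers (red) and 5 PBS livers (blue), with A2M replicate 1 and PBS replicate 2 circled. Itgb2 and Cd44 rise with Ptprc through both groups, with Pearson r of 0.95 and 0.94, Cdh5 rises with Pecam1 with r of 0.92, and the remaining panels are scattered.

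Among the receptors of the immunoglobulin superfamily, Vcam1 had the largest positive estimate. Vcam1 binds the alpha4 and alpha9 integrins, and in liver it is found on endothelium and Kupffer cells. A2M livers had from 0.796 to 5.12 RPKM with a median of 1.15, and PBS livers had 0.578, 1.43, 0.672, 0.558 and 1.21 RPKM. A2M replicate 1 with 5.12 RPKM and A2M replicate 6 with 2.51 RPKM lay above every PBS liver, and the other A2M livers lay inside the PBS range. The log2 fold change was 1.15 ± 0.49 (SE, 95% interval 0.09 to 2.21, adjusted p = 0.296 in edgeR), 0.57 without A2M replicate 1 and 0.76 without A2M replicate 1 and PBS replicate 2. With the Kupffer cell marker Clec4f the Pearson r was 0.73 (adjusted permutation p = 0.0256) and rho 0.49 (adjusted permutation p = 0.155), and r was 0.15 without A2M replicate 1 and PBS replicate 4, so this relation rested on those livers. Within the A2M livers r was 0.87, and within the PBS livers 0.19.

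Icam1, the ligand of the beta2 integrins, had from 5.87 to 9.54 RPKM with a median of 7.93 in A2M livers, against 8.40, 6.62, 7.01, 6.91 and 6.37 RPKM in PBS livers. A2M replicates 1, 4 and 6 lay above every PBS liver, and the rest were mixed. Icam1 had a log2 fold change of 0.18 ± 0.15 (SE, 95% interval -0.14 to 0.49, adjusted p = 0.635 in edgeR). Exons of Gm47079 on the opposite strand cover 20.2% of its exon length, and the libraries do not keep the strand. Icam2, an endothelial ligand of LFA-1, had 0.949 ± 0.345 RPKM in A2M livers (SD, n = 6) and 1.14 ± 0.722 RPKM in PBS livers (SD, n = 5), with the highest value, 2.41 RPKM, in PBS replicate 2.

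The classical cadherins of hepatocytes were the next most abundant adhesion genes after Fn1 and Itgb1, together with Itgb5. Cdh2 had from 13.2 to 22.1 RPKM with a median of 16.9 in A2M livers, against 22.7, 19.5, 20.7, 14.1 and 19.4 RPKM in PBS livers. The groups overlapped, and the log2 fold change was -0.15 ± 0.13 (SE, 95% interval -0.44 to 0.14, adjusted p = 0.663 in edgeR). Cdh1 had from 7.44 to 12.8 RPKM with a median of 10.3 in A2M livers, against 15.2, 13.0, 10.9, 6.32 and 14.3 RPKM in PBS livers. The lowest and the highest liver were both PBS livers, and the log2 fold change was -0.19 ± 0.19 (SE, 95% interval -0.59 to 0.22, adjusted p = 0.7101 in edgeR). Cdh2 RNA exceeded Cdh1 RNA in every liver, at 1.29 to 2.07 times its level in A2M livers and 1.36 to 2.23 times in PBS livers.

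Cdh5, the cadherin of endothelial junctions, had 1.74 to 2.67 RPKM in A2M livers and 0.990 to 4.62 RPKM in PBS livers. The highest value was that of PBS replicate 2 and the lowest that of PBS replicate 4. Its log2 fold change was 0.03 with all livers and 0.44 without PBS replicate 2. It followed the endothelial marker Pecam1 over the 11 livers with a Pearson r of 0.92 (adjusted permutation p = 0.00022) and a Spearman rho of 0.79 (adjusted permutation p = 0.0108), with r of 0.81 without A2M replicate 1 and PBS replicate 2 and 0.93 with each group centred. Within the A2M livers r was 0.80, and within the PBS livers 0.98. Of the 23 cadherins 17 fell under the filter, and Cdh7, Cdh8 and Cdh10 had 0 reads among all 364157074, which allows up to 0.00824 RPM over the 11 livers. The others under the filter were Cdh3, Cdh4, Cdh6, Cdh9, Cdh12, Cdh16, Cdh17, Cdh18, Cdh19, Cdh20, Cdh22, Cdh23, Cdh24 and Cdh26. The deepest gene under the filter was Cdh4 with 116 reads in all, and 10 of the 55 genes had fewer than 10.

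The remaining tested genes were low, and their groups overlapped. Itga8, the nephronectin receptor chain known from mesenchymal cells, had 0.310 to 0.544 RPKM in A2M livers and 0.321 to 0.924 RPKM in PBS livers. Itga9 and Itga4, the alpha chains that bind Vcam1, had 0.684 to 1.87 and 0.0648 to 0.150 RPKM in A2M livers, and 0.401 to 1.51 and 0.0807 to 0.165 RPKM in PBS livers. Itgb4, the partner of Itga6 in hemidesmosomes, had 0.0376 to 0.0770 RPKM in A2M livers and 0.0384 to 0.146 RPKM in PBS livers. Cdh11, a cadherin of mesenchymal cells, had 0.117 to 0.204 RPKM in A2M livers and 0.128 to 0.372 RPKM in PBS livers. Cdh13, which is anchored in the membrane by a lipid and binds adiponectin, had 0.0865 to 0.409 RPKM in A2M livers and 0.121 to 0.505 RPKM in PBS livers. Cdh15, known from muscle, had 0.0124 to 0.155 RPKM in A2M livers and 0 to 0.156 RPKM in PBS livers. In PBS livers the highest value of Itga8, Itga9, Itgb4, Cdh11 and Cdh13 was that of replicate 2 in each case.

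Fn1 encodes fibronectin, the matrix and plasma protein that hepatocytes secrete and that alpha5beta1 binds. It was the most abundant of the 55 genes. A2M livers had from 117 to 163 RPKM with a median of 146, against 202, 142, 142, 128 and 171 RPKM in PBS livers, and the ranges overlapped. The log2 fold change was -0.11 ± 0.12 (SE, 95% interval -0.38 to 0.16, adjusted p = 0.751 in edgeR). Vim, the intermediate filament of mesenchymal and blood cells, had from 3.85 to 9.59 RPKM with a median of 6.46 in A2M livers, against 5.29, 14.8, 3.39, 7.41 and 7.80 RPKM in PBS livers. PBS replicate 2 held the highest value. The log2 fold change was -0.26 ± 0.31 (SE, 95% interval -0.94 to 0.42, adjusted p = 0.770 in edgeR) and turned to 0.05 without that liver. With the stellate cell marker Des, Vim had a Pearson r of 0.63 (adjusted permutation p = 0.0464) and a rho of 0.53 (adjusted permutation p = 0.153). Without A2M replicate 3 and PBS replicate 2, r was 0.32. The adjusted permutation p of r also exceeded 0.05 when any of several livers was left out singly. It was 0.0543 without PBS replicate 3, 0.121 without A2M replicate 1 and 0.152 without PBS replicate 2. With Pf4, a platelet gene, Itga2b of the platelet fibrinogen receptor had an r of 0.52 (adjusted permutation p = 0.106) and a rho of 0.31 (adjusted permutation p = 0.354), and r was 0.04 without A2M replicate 1 and PBS replicate 2.

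Single livers stood out in several of the genes at a time, compared on RPM + 0.1. A2M replicate 1 stood at least 2-fold above the median of the other A2M livers in 10 of the 32 genes, against 5.51% of all genes. These were Itgax at 5.18-fold, Vcam1 at 4.77-fold, Itgb2 at 4.29-fold, Itgb7 at 4.12-fold, Itgal at 3.74-fold, Cd44 at 3.72-fold and Itgb3 at 3.07-fold, with Cdh15, Itga9 and Itga2b between 2.15-fold and 2.31-fold. PBS replicate 2 stood at least 2-fold above the median of the other PBS livers in another 10 of the 32 genes by the same measure, against 8.12% of all genes. They were Itga6 at 8.51-fold, Cdh5 at 2.84-fold, Cdh13 at 2.67-fold, Itgb4 at 2.59-fold and Icam2 at 2.56-fold, with Itga9, Itga8, Vim, Vcam1 and Cdh11 between 2.02-fold and 2.42-fold. Only Vcam1 and Itga9 were in both lists, 2 genes of 10 in each. The first list holds 4 leukocyte integrin chains (Itgax, Itgb2, Itgb7 and Itgal) but not Itgam at 1.60-fold or Itga4 at 1.69-fold. The second is led by the laminin receptor chain Itga6, with its partner Itgb4, and holds the endothelial genes Cdh5 and Icam2. A2M replicate 6 was at least 2-fold above the median of the other A2M livers in 5 of the 32 genes (Cd44, Itgal, Itgax, Itgb2 and Vcam1), against 2.85% of all genes, and all 5 are in the list of A2M replicate 1. The liver farthest from the median of all livers was A2M replicate 1 in 9 of the 32 genes, PBS replicate 2 in 8, PBS replicate 4 in 6 and PBS replicate 1 in 5. Over all genes, these livers were the farthest in 17.9%, 13.4%, 14.6% and 11.5%, in the same order. The endothelial markers summed to 101 to 156 RPM in A2M livers, against 196 RPM in PBS replicate 2 and 76.3 to 121 RPM in the other PBS livers. The stellate cell and fibroblast markers summed to 129 to 209 RPM in A2M livers, against 298 RPM in PBS replicate 2 and 121 to 157 RPM in the other PBS livers. Of these markers Stab2, Clec4g, Oit3, Gpr182 and Lrat were highest in a liver other than PBS replicate 2, and the rest were highest there. The part of these cells in the difference between livers was not tested. Without A2M replicate 1 and PBS replicate 2, 0 of 31 genes were called and 15 were positive.

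**Figure D4:**
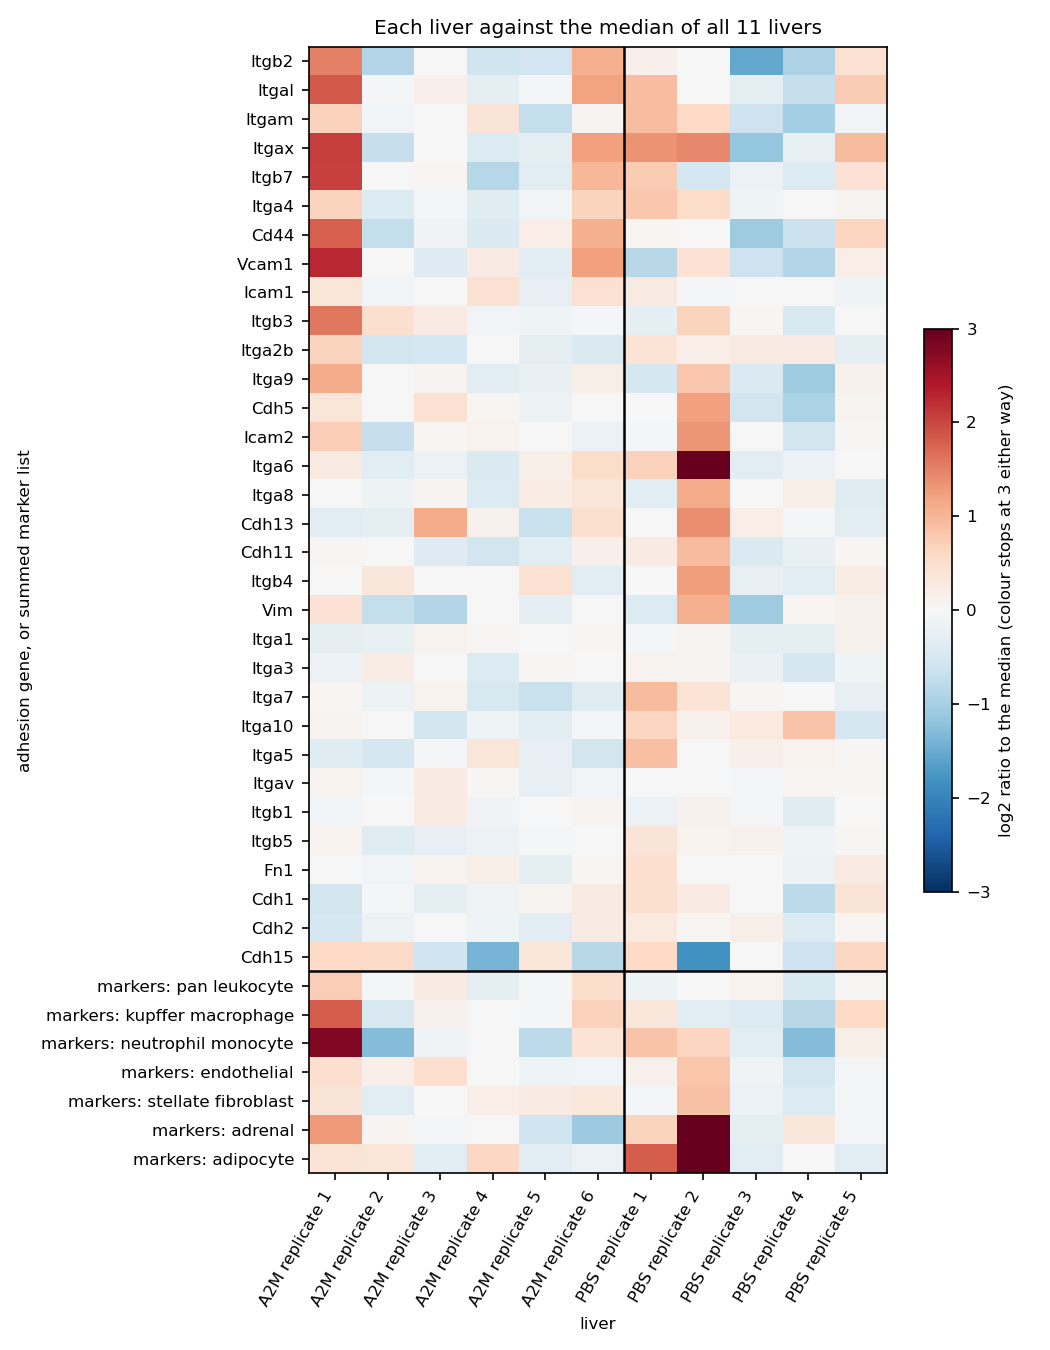
Log2 ratio of each liver to the median of all 11 livers for the 32 tested adhesion genes (in log2(RPM + 0.1)) and for the summed RPM of 7 cell type marker lists below the line, with A2M livers on the left and PBS livers on the right (red above, blue below the median). Most of the leukocyte genes at the top are red in A2M replicates 1 and 6 together with the leukocyte marker lists, Cdh5 to Vim are red in PBS replicate 2, and Itgb1, Itgav, Itgb5 and Fn1 are pale in every liver.

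RefSeq promoter sequences, each running from 250 bases before to 50 bases after a transcription start in the build GRCm38.p6, matched 18 of the 32 tested genes with 19 promoters. They are shown for Itgb1, the abundant and even beta chain, and for Itgb7 and Cd44, which were highest in A2M replicate 1. Capitals mark the motif GAGGAA, a core that factors of the ETS family such as PU.1 recognise, and the motif GGGCGG, the GC box, on either strand (TTCCTC and CCGCCC on the other). The Itgb1 promoter lies at chr8:128685404-128685703 on the plus strand, that of Itgb7 at chr15:102231886-102232185 and that of Cd44 at chr2:102901616-102901915, both on the minus strand. Itgb7 has a further transcription start upstream of the one shown.
Itgb1: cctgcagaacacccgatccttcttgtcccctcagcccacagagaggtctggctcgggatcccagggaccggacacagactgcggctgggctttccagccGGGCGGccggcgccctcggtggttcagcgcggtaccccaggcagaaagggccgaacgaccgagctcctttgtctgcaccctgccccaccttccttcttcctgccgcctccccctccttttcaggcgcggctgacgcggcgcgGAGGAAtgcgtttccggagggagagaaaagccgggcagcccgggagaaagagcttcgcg
Itgb7: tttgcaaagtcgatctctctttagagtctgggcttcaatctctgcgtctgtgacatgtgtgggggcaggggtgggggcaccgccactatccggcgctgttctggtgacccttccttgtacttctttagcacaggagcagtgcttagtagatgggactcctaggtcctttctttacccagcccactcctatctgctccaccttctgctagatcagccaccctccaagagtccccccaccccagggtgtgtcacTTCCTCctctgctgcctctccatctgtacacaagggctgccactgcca
Cd44: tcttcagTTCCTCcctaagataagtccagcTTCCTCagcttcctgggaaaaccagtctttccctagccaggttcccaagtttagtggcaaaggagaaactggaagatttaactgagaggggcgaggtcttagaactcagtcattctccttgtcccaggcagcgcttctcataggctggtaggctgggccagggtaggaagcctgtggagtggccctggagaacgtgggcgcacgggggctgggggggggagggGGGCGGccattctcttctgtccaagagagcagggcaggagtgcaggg
The Itgb1 window held 27 CpG dinucleotides, while those of Itgb7 and Cd44 held 5 and 6, against a median of 7 over 32851 promoters of this length. Over the 19 promoters the count ran from 5 in Itgax, Itgb7 and 1 of the starts of Itga3 to 27 in Itgb1. GAGGAA was present in 9 of the 19 (47.4%), against 28.3% of all promoters, and GGGCGG in 11 of the 19 (57.9%), against 35.7%. The motifs were chosen with the values known and may overlap each other, and a match describes letters only.

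The genes that act with these receptors gave 0 calls in edgeR in all 6 lists, which were drawn up by hand, beside 0.215% of all genes. The 11 tested genes of the list around CD44 and hyaluronan include Tnip1, which has no established role there. Over all genes, 14.7% had an unadjusted p under 0.05, 48.9% had a positive estimate, and in 2.59% the groups did not overlap. Of 27 tested genes of the focal adhesion, 13 had a positive estimate and 4 an unadjusted p under 0.05. The smallest p there was that of Zyx, the actin-binding protein zyxin, at 6.85 to 10.03 RPKM in A2M livers, all above the 3.38 to 6.22 RPKM of PBS livers (log2 fold change 0.67 ± 0.14 SE, adjusted p = 0.0438 in edgeR, over the threshold of 0.01). Tns3 (tensin 3) and Tln1 (talin 1, which joins integrins to actin) followed with log2 fold changes of 0.53 and -0.22, both with overlapping groups.

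Of 22 tested genes of adherens and tight junctions, 10 were positive and 5 had an unadjusted p under 0.05. Tjp3, the tight junction scaffold ZO-3, had 2.87 to 4.63 RPKM in A2M livers, all below the 5.88 to 12.0 RPKM of PBS livers (log2 fold change -0.99 ± 0.19 SE, adjusted p = 0.0274 in edgeR, over the threshold). Jup, plakoglobin, which links cadherins to the cytoskeleton, had 6.67 to 9.01 RPKM in A2M livers, above the 5.76 to 7.11 RPKM of PBS livers when scaled by TMM (log2 fold change 0.33 ± 0.10 SE, adjusted p = 0.151 in edgeR). Cldn1, the tight junction protein claudin 1, had a log2 fold change of -0.88 with an adjusted p of 0.114 in edgeR.

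Of 24 integrin ligands, 4 had a positive estimate and the median log2 fold change was -0.26, against -0.01 over all genes, with 2 at an unadjusted p under 0.05. These were Npnt (nephronectin, a ligand of alpha8beta1) at -1.35 and Spp1 (osteopontin) at -1.56, with adjusted p of 0.117 and 0.133 in edgeR. Npnt was low, at 0.0293 to 0.173 RPKM in A2M livers and 0.139 to 0.380 RPKM in PBS livers. PBS replicate 2 held its highest PBS value, and its log2 fold change was -1.14 without that liver. Spp1 is also a bile duct marker, and its values ran from 14.6 to 24.6 RPKM in A2M livers, against 11.0 to 149 RPKM in PBS livers. Without PBS replicate 1 the log2 fold change of Spp1 was -0.71. Fga, a fibrinogen chain, had a log2 fold change of -0.27. Of 6 tested factors of the epithelial to mesenchymal transition 0 had an unadjusted p under 0.05, and Snai1, Zeb1 and Snai2 had log2 fold changes of 0.59, -0.18 and -0.18. Snai1 was at 0.30 without A2M replicate 4, and Snai2 at 0.00034 without PBS replicate 4. Of 11 genes around CD44 and hyaluronan only Mmp14, a membrane metalloproteinase that cleaves CD44, had an unadjusted p under 0.05 (log2 fold change -0.61, adjusted p = 0.187 in edgeR, and -0.35 without PBS replicate 1), ahead of Ezr at 0.37 and Hyal2 at 0.17. Of 24 other adhesion receptors 0 did, and the smallest p were those of Ceacam1, Ncam2 and Mcam, with log2 fold changes of -0.29, -0.68 and -1.22. Mcam, an endothelial and pericyte adhesion molecule, had 0.294 to 0.611 RPKM in A2M livers, against 4.27 RPKM in PBS replicate 2 and 0.0988 to 0.451 RPKM in the other PBS livers. Its log2 fold change turned to 0.46 without PBS replicate 2.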

How the data were processed

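Total RNA of 11 livers (6 A2M, 5 PBS) was sequenced as single, unstranded reads. According to the study's methods and the submitters' processing notes, the authors used bcl2fastq 1.8.4, TopHat2 with mm10 and featureCounts with RefSeq genes. The authors deposited read counts per gene, not normalized. The deposited RPM values are those counts scaled to an equal library total (largest difference 4.9e-11 RPM), and the deposited RPKM values also divide by exon length.

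Counts were tested with edgeR 4.0.16 in R 4.3.3 (TMM scaling, filterByExpr by group, quasi-likelihood F-test) over all 12581 genes kept, and p-values were adjusted by Benjamini-Hochberg and called under 0.01. Intervals are 95% intervals of the fit. DESeq2 1.42.0 was an alternative. No libraries agreed within sampling noise (smallest chi-square per degree of freedom 34.7), so none were merged and each was counted as 1 replicate. This comparison cannot show that the libraries came from separate animals. Correlations used log2(RPM + 0.1) and two-sided permutation tests with 100000 resamples over 6 relations. The floor of 3 counts covers counting error only.

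PBS livers are listed singly, and A2M livers by range and median, for genes chosen by rule. These are Itgb1, Cd44, Cdh1, Vim, the 8 genes with the smallest p and the 8 with the highest mean RPKM, 14 genes together. For each pathway list the 3 genes with the smallest p are named. The members, lists and rules were chosen with earlier results of these data known. Of the macrophage and the neutrophil markers, Adgre1 and Ly6g were not found under these symbols. Exon overlaps are from GENCODE vM21, and promoters and coordinates from RefSeq in GRCm38.p6.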

Additional observations from a re-analysis of the deposited data

Results flagged for a closer look

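Within a group, 3 livers lay far from all others of their group, among 28 groups of values examined for the 14 genes chosen by rule. For normally distributed values chance alone gives such a flag in about 1 group of 20. That rate need not hold here, because the values are RPKM and 8 of the genes were picked by smallest p from the same livers. All 3 flagged genes are among those 8. Itga5 stood at 9.87 RPKM in PBS replicate 1, where the nearest PBS liver had 5.83 RPKM. Itga6 stood at 1.37 RPKM in PBS replicate 2, where the nearest PBS liver had 0.264 RPKM. Itgb3 stood at 1.02 RPKM in A2M replicate 1, where the nearest A2M liver had 0.470 RPKM.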

How the results depend on the processing

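Under all alternatives run, 0 adhesion genes were called at an adjusted p under 0.01, whether with RLE size factors, library totals, no low-count filter, robust dispersion, DESeq2, the edgeR exact test with DESeq2, each liver left out in turn, or A2M replicate 1 and PBS replicate 2 left out together, and 0 were called at an adjusted p under 0.05. Over all genes the count of calls was 27, and it was 286 in DESeq2, 185 with the edgeR exact test and DESeq2 both required, 154 at an adjusted p under 0.05, 10 without A2M replicate 1 and PBS replicate 2, and 6 to 35 with a liver left out in turn. With library totals the calls over all genes were 5 higher and 15 lower, against 10 and 17 with TMM. The count of adhesion genes with a positive estimate ran from 11 to 19 with a liver left out, and that of genes without overlap from 0 to 1, the gene being Itga7, lower in A2M livers without PBS replicate 5. With a liver left out, the log2 fold change of Vim ran from -0.44 to 0.05, and it was reversed, at 0.0503, without PBS replicate 2. The causes of these shifts were not tested.

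With a liver left out, r ran from 0.91 to 0.97 for Itgb2 and Ptprc, 0.90 to 0.96 for Cd44 and Ptprc, 0.82 to 0.96 for Cdh5 and Pecam1, 0.34 to 0.82 for Vcam1 and Clec4f, 0.49 to 0.71 for Vim and Des, and 0.27 to 0.63 for Itga2b and Pf4. Without A2M replicate 1 and PBS replicate 2, r was 0.29 for Vim and Des and 0.49 for Vcam1 and Clec4f, no longer past the permutation threshold. No paired analysis was possible because the replicate numbers were given in the order of deposit. Depth limits the 23 genes under the filter. Without a filter 52 adhesion genes were tested, 0 were called, and the smallest adjusted p was 0.181 (Itga2).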
